A study of Mus musculus with 172 samples.

Results

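The genes described here encode the voltage-gated calcium channels (pore subunits *Cacna1*, cytoplasmic beta subunits *Cacnb*, alpha2delta subunits *Cacna2d* and the gamma family *Cacng*), the voltage-gated sodium channels (*Scn*) and the hyperpolarization-activated cation channels (*Hcn*). They were chosen by symbol alone, among genes of the cortex tables whose symbol starts with Cacna, Cacnb, Cacng, Scn and a number, or Hcn and a number. Described are 37 of the 14896 genes listed in cortex, of which 14 were also listed in liver. RNA came from the BXD panel, recombinant inbred mouse lines derived from C57BL/6J (B6) and DBA/2J (D2). Male mice of 11 to 14 weeks were either left undisturbed (Ctr) or kept awake for 6 h from light onset (sleep deprivation, SD), and all were killed 6 h after light onset. Each library holds pooled RNA of 3 mice of 1 line and condition, fewer in BXD79, BXD85 and BXD101, so that the Ctr and SD libraries of a line come from different mice. In each tissue and condition there were 39 pools, from 33 BXD/RwwJ lines, 2 pools of each parental strain and the 2 reciprocal F1 hybrids (BD-F1 and DB-F1). Pools of 4 BXD/TyJ lines entered only alternative fits.

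Calcium channels are built from a pore subunit, which decides the current type, with beta and alpha2delta subunits that carry the complex to the membrane and tune its gating. L-type (Cav1) channels couple activity to calcium signals in the cell body and dendrites, P/Q-, N- and R-type (Cav2) channels drive transmitter release, and T-type (Cav3) channels open near rest and support burst firing, which in the thalamus shapes sleep spindles. Sodium channels carry the upstroke of the action potential, and HCN channels carry the h-current that sets resting excitability and rhythmic firing. Most gamma subunits are better known as TARPs, which traffic and gate AMPA-type glutamate receptors.

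The libraries held 18995492 to 28998853 reads counted on genes in cortex Ctr and 19025159 to 28685060 in cortex SD, against 4681101 to 8269401 in liver. Of the 37 genes, 31 had a median of at least 100 reads in cortex Ctr. The Ctr library of BXD90 stood apart: its median absolute deviation from the Ctr median of each gene, over all genes, was 0.222 on the log2 scale, against a median of 0.0844 over the 78 cortex libraries. It was the lowest of the 39 Ctr pools for 12 of the 37 genes, and the change after SD was highest in BXD90 for 16 of them. The Ctr library of BXD56 was the next furthest (0.151), and was the lowest Ctr pool for 6 genes and the highest for 5, among them *Scn7a*, *Hcn4* and *Cacna1g*. In these bulk samples, fewer cells of a type and less RNA per cell cannot be told apart.

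Levels were compared between genes as CPM per kb of exon. Of the 37 genes, the calcium channel beta subunit *Cacnb3* had the highest level, with a median of 99.1 CPM per kb in Ctr (78.9 to 111 over the pools). It was followed by the TARP *Cacng3* (79.6, 64.7 to 92.0) and the sodium channel beta subunit *Scn2b* (65.5, 58.1 to 70.3). The Ctr range of *Cacng3* overlapped those of *Cacnb3* and *Scn2b*. Among the sodium channel pores, *Scn2a1* had a median of 55.3 CPM per kb, *Scn8a* 51.6 and *Scn1a* 40.8, and their ranges overlapped. Among the calcium channel pores, P/Q-type *Cacna1a* had a median of 36.7 CPM per kb, R-type *Cacna1e* 23.5, N-type *Cacna1b* 22.5 and T-type *Cacna1g* 22.4. T-type *Cacna1i* had 19.4 CPM per kb and T-type *Cacna1h* 7.80. The L-type pores *Cacna1d* (10.2 CPM per kb) and *Cacna1c* (8.99) lay between these T-type pores. The h-current gene *Hcn2* had a median of 41.0 CPM per kb. Pores known mainly from other organs were close to the lower end of the scale: *Cacna1s* of skeletal muscle had a median of 0.132 CPM per kb, *Cacna1f* of retina 0.0887 and *Scn9a* of sensory neurons 0.177.

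**Figure D1:**
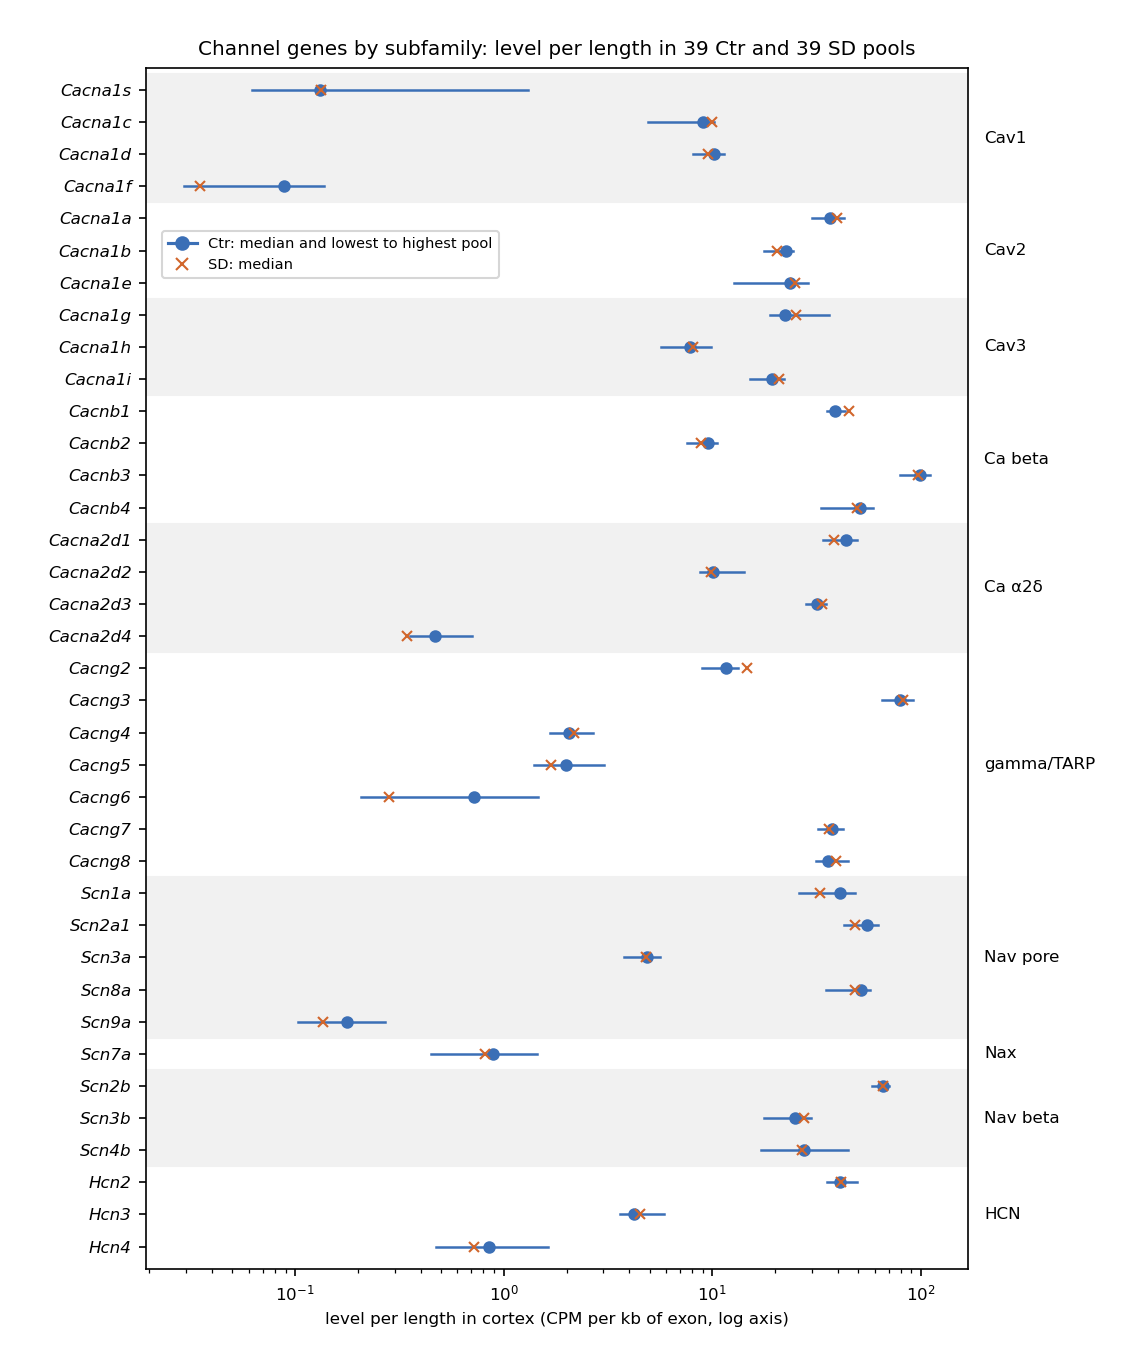
Level of each of the 37 channel genes in cortex, in CPM per kb of exon on a log axis, grouped by subfamily, with circles for Ctr medians of 39 pools, horizontal bars from the lowest to the highest Ctr pool and crosses for SD medians. *Cacnb3* is highest (median 99.1 CPM per kb in Ctr) and *Cacna1f* lowest (0.0887), and *Cacna1s* has the widest bar.

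To see how SD changed these genes in cortex, SD and Ctr pools were compared with limma. Of the 37 genes, 24 changed (adjusted p under 0.05), against 68.4% of all genes listed. Of these, 11 rose (33.0% of all genes rose) and 13 fell (35.4% of all genes fell). The changes were small: the median absolute log2 fold change was 0.12 over the 37 genes and 0.13 over all genes, and 2 of the called genes reached an absolute log2 fold change of 0.5. By subfamily, 4 of 5 sodium channel pores fell and none rose, 2 of 3 T-type pores rose and none fell, and 1 of 3 sodium channel beta subunits rose and none fell. In the L-type and Cav2 pores and in the beta, alpha2delta and gamma groups, called genes went both ways. *Cacnb1* and *Cacng2* rose in all 39 pools, whereas 11.2% of all genes changed in 1 direction in every pool. The Ctr and SD ranges overlapped for all 37 genes. Over all genes, all SD pools lay above all Ctr pools for 1.01% and below them for 0.389%. A change in 1 direction in at least 30 of 39 pools was found for 21 of the 37 genes and for 59.3% of all genes. With the line as a replicate block, which pairs the Ctr and SD pools of a line, 29 genes changed, 13 up and 16 down. The added 5 were *Scn2b* and *Hcn3*, which rose, and *Cacna1s*, *Cacng5* and *Scn4b*, which fell. In that fit, 2 of 3 sodium channel beta subunits rose and 1 fell. Without BXD90, an alternative chosen after seeing the data, 25 genes changed, and without BXD56, chosen likewise, 25 changed, with *Hcn3* added.

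The summed levels of several marker lists of cell types and regions moved with condition in the same libraries, while single markers of a list did not all move together. All 5 excitatory neuron markers were listed, and their summed level was 1831 to 2191 CPM in Ctr and 1681 to 2028 CPM in SD. The sum was lower in SD in 36 of 39 pools, although 2 of these markers rose and 3 fell by the limma test. All 6 inhibitory neuron markers were listed (828 to 1020 CPM in Ctr, 857 to 1076 CPM in SD), with a higher sum in SD in 33 pools, and 2 of them rose and 0 fell. Of the 10 striatum markers, 9 were listed (204 to 474 CPM in Ctr, 286 to 517 CPM in SD). Their sum was higher in SD in 32 pools, and 3 of them rose and 1 fell. The 5 thalamus markers summed to 54.8 to 83.0 CPM in Ctr and 67.0 to 91.5 CPM in SD, higher in 30 pools, and 2 of them rose and 1 fell. Of the 5 hepatocyte markers, *Alb*, *Apoa1*, *Serpina1a* and *Cyp3a11* were not listed in cortex. The 1 that was listed was at 1.82 to 219 CPM in Ctr and 2.81 to 380 CPM in SD. Sums of the choroid plexus markers also varied widely between pools (6.95 to 233 CPM in Ctr, 6.02 to 402 CPM in SD), as did those of the pituitary markers (0.560 to 59.9 CPM in Ctr, 0.457 to 6.56 CPM in SD). The part of these shifts in the changes described next was not tested.

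**Figure D2:**
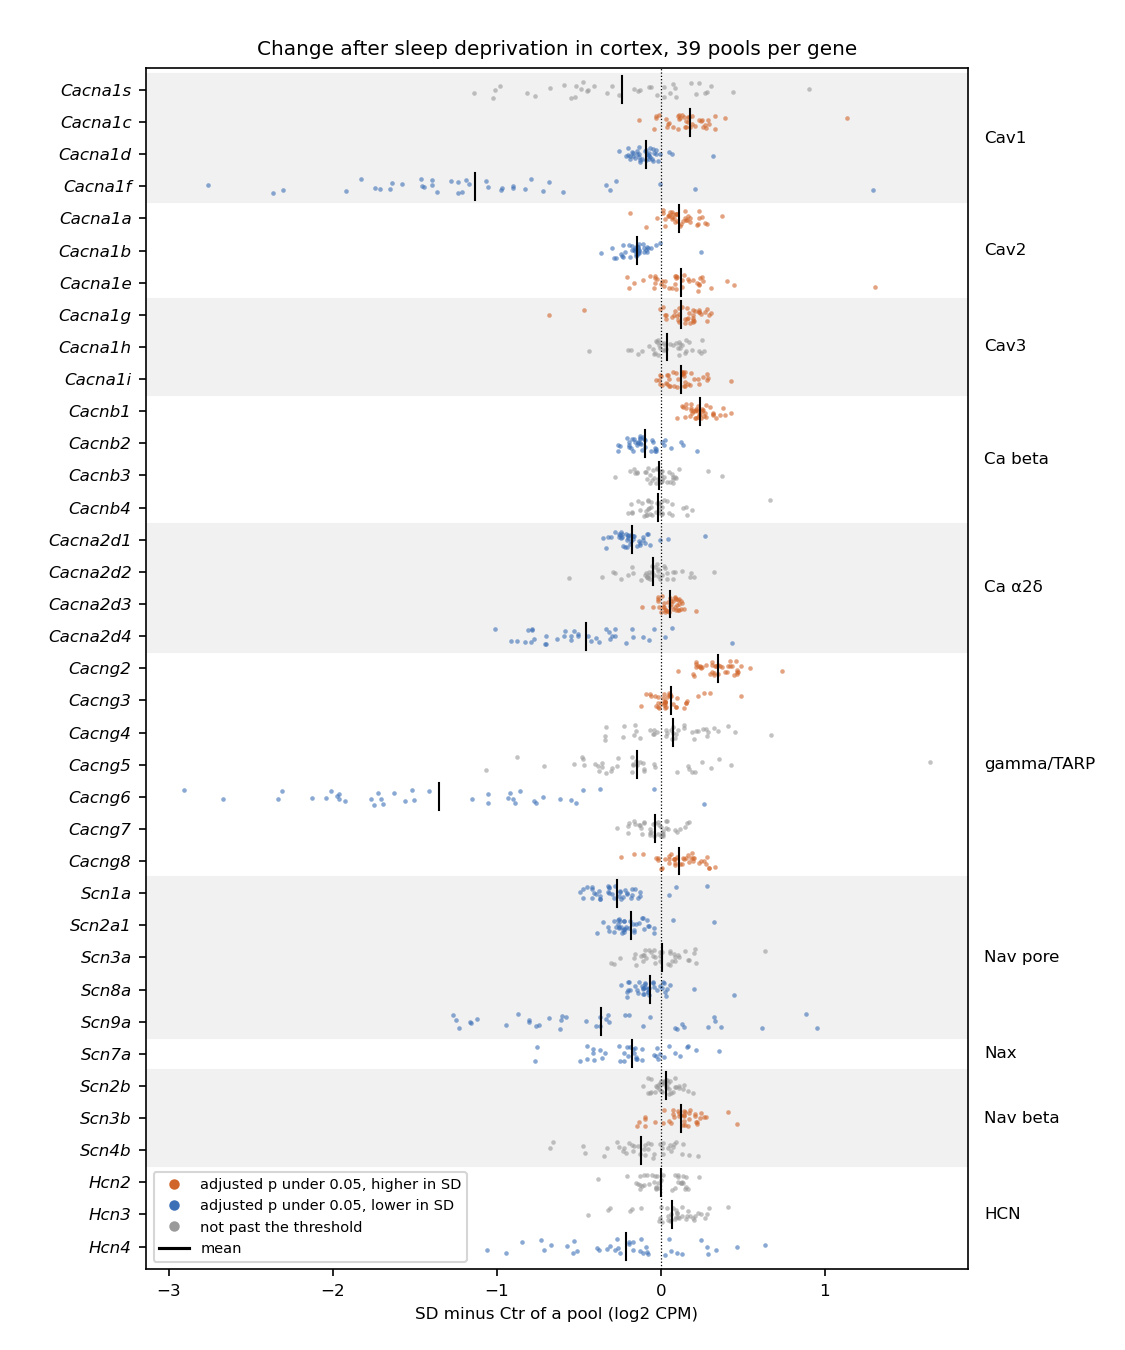
Change of each channel gene in cortex after SD, as log2 CPM in SD minus Ctr of the same line, by subfamily. Each point is 1 of 39 pools, coloured by whether the gene was higher, lower or not past the threshold, and the black tick is the mean, with *Cacnb1* and *Cacng2* above 0 in every pool and *Cacna1f* and *Cacng6* reaching furthest below 0.

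The L-type pores moved in different directions. *Cacna1c*, an L-type pore of brain, was at 5.43 to 6.49 log2 CPM in Ctr (median 6.31) and 6.08 to 6.69 in SD (median 6.46). It rose by 0.17 on the log2 scale (adjusted p = 6.1e-06, standard error (SE) 0.034), in 34 of 39 pools, with the largest change in BXD90 (1.13, next highest 0.39). *Cacna1d*, an L-type pore that opens at lower voltages, was at 6.24 to 6.73 log2 CPM in Ctr (median 6.58) and 6.32 to 6.60 in SD (median 6.48), and fell by 0.092 (adjusted p = 5.64e-07, SE 0.016), in 36 pools. For both genes the ranges of the conditions overlapped. As a share of the summed CPM per kb of the 4 L-type pores, *Cacna1c* went from a median of 46.0% to 50.1%, and the share was higher in SD in 39 of 39 pools. The share of *Cacna1d* went from a median of 52.3% to 48.0% and was lower in SD in 38 pools. *Cacna1f*, the L-type pore of photoreceptor synapses, was at -2.41 to -0.18 log2 CPM in Ctr (median -0.81, a median of 12 reads) and -3.47 to -0.94 in SD (median -2.15, a median of 4 reads). Its log2 fold change was -1.13 (adjusted p = 1.16e-13, SE 0.121), with a fall in 37 pools and 8 SD pools below the lowest Ctr pool. The change of *Cacna1s* did not pass the test (log2 fold change -0.23, adjusted p = 0.512, SE 0.310). It passed when limma took the pools of each line together (adjusted p = 0.00315, SE 0.0719), with a fall in 25 pools and a rise in 14. Its lines fell into a low and a high set, described below. From Ctr to SD, the median of the 10 high lines went from 2.54 to 2.04 log2 CPM. That of the 23 low lines went from -0.42 to -0.59.

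Of the Cav2 pores, which sit at presynaptic terminals, P/Q- and R-type rose and N-type fell. *Cacna1a* was at 7.89 to 8.41 log2 CPM in Ctr (median 8.19) and 8.17 to 8.48 in SD (median 8.29), a log2 fold change of 0.11 (adjusted p = 4.7e-06, SE 0.022) with a rise in 36 pools. *Cacna1e* rose by 0.12 (adjusted p = 0.0111, SE 0.045) in 28 pools, with a change of 1.30 in BXD90 and at most 0.44 elsewhere. *Cacna1b* was at 7.47 to 7.93 log2 CPM in Ctr (median 7.81) and 7.47 to 7.77 in SD (median 7.66), and its log2 fold change was -0.15 (adjusted p = 1.81e-13, SE 0.016), with a fall in 38 pools. The Ctr and SD ranges of all of these genes overlapped. The N-type pore thereby held a median of 27.3% of the summed CPM per kb of the Cav2 pores in Ctr and 23.9% in SD, with a lower share in 38 pools.

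Of the T-type pores, *Cacna1g* and *Cacna1i* rose and *Cacna1h* did not pass the test (log2 fold change 0.037, adjusted p = 0.43). *Cacna1g* was at 7.31 to 8.24 log2 CPM in Ctr (median 7.56) and 7.44 to 8.01 in SD (median 7.72), with a log2 fold change of 0.12 (adjusted p = 0.00149, SE 0.035) and a rise in 36 pools. *Cacna1i* rose by 0.12 (adjusted p = 6.61e-06, SE 0.024) in 35 pools, and 10 SD pools lay above the highest Ctr pool. The summed level of the T-type pores was 49.6 CPM per kb in Ctr and 53.7 CPM per kb in SD (medians), higher in SD in 35 pools.

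Among the beta subunits, *Cacnb1* (mm9 chromosome 11, 97862822 to 97884348), known as the beta subunit of skeletal muscle and also made in brain, had the largest number of SD pools above all Ctr pools among the 37 genes. It was at 7.16 to 7.44 log2 CPM in Ctr (median 7.29) and 7.42 to 7.67 in SD (median 7.52). The log2 fold change was 0.24 (adjusted p = 3.87e-28, SE 0.0134), and 38 of 39 SD pools lay above the highest Ctr pool. The smallest change in any line was 0.096 (BXD89). *Cacnb2* fell (log2 fold change -0.095, standard error 0.019, adjusted p = 1.24e-05), in 32 pools. The most abundant beta subunits per kb did not pass the test: *Cacnb3* was at 7.94 to 8.43 log2 CPM in Ctr (median 8.27) and 8.10 to 8.42 in SD (median 8.24, adjusted p = 0.657), and *Cacnb4* had an adjusted p of 0.633.

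Among the alpha2delta subunits, which include the binding sites of gabapentin, *Cacna2d1* and *Cacna2d4* fell and *Cacna2d3* rose. *Cacna2d1* (mm9 chromosome 5, 15440509 to 15880329) was at 8.15 to 8.69 log2 CPM in Ctr (median 8.52) and 8.10 to 8.54 in SD (median 8.33), with a log2 fold change of -0.17 (adjusted p = 2.58e-10, SE 0.0232) and a fall in 37 pools. The ranges overlapped, and 1 SD pool lay below the lowest Ctr pool. *Cacna2d4*, known from photoreceptors, was at 1.04 to 2.03 log2 CPM in Ctr (median 1.44) and 0.31 to 1.80 in SD (median 0.99), with a log2 fold change of -0.46 (adjusted p = 4.83e-09, SE 0.0668). It fell in 36 pools, and 20 SD pools lay below the lowest Ctr pool. *Cacna2d3* rose by 0.057 (adjusted p = 0.00757, SE 0.019) in 33 pools. *Cacna2d2*, at log2 fold change -0.050, did not pass the test (adjusted p = 0.139).

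In the gamma family, the TARPs *Cacng2*, *Cacng3* and *Cacng8* rose, *Cacng6* fell, and *Cacng4*, *Cacng5* and *Cacng7* did not pass the test. *Cacng2* (stargazin, mm9 chromosome 15, 77822178 to 77950458) was at 5.62 to 6.20 log2 CPM in Ctr (median 6.01) and 6.18 to 6.51 in SD (median 6.33), a log2 fold change of 0.35 (adjusted p = 3.78e-23, SE 0.0237). The ranges met only at their ends, with 36 SD pools above the highest Ctr pool. *Cacng3*, the TARP with the highest level per kb, was at 6.62 to 7.13 log2 CPM in Ctr (median 6.92) and 6.78 to 7.16 in SD (median 6.97), and rose by 0.059 (adjusted p = 0.0164, SE 0.022) in 29 pools. *Cacng8* rose by 0.11 (adjusted p = 4.32e-05, SE 0.025) in 33 pools. *Cacng6*, which has no known role at glutamate receptors, was at -2.62 to 0.20 log2 CPM in Ctr (median -0.83) and -4.52 to -0.35 in SD (median -2.18). Its log2 fold change was -1.35 (adjusted p = 1.68e-11, SE 0.165), with a fall in 38 pools, and it rested on medians of 13 reads in Ctr and 4 reads in SD, with 1 SD library at 0 reads. *Cacng5* was higher in the SD library of BXD100 (4.34 log2 CPM) than in any other SD pool (next 3.18) or Ctr pool (highest 3.53). *Cacng6*, *Cacng7* and *Cacng8* lie side by side on chromosome 7 (3333055 to 3435658 in mm9), and 1 rose, 1 fell and 1 did not pass the test.

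The sodium channel pores fell where they changed. *Scn1a*, the main pore of fast-spiking inhibitory neurons (mm9 chromosome 2, 66108838 to 66278897), was at 7.79 to 8.69 log2 CPM in Ctr (median 8.44) and 7.88 to 8.43 in SD (median 8.12). Its log2 fold change was -0.27 (adjusted p = 3.13e-10, SE 0.0356), with a fall in 36 of 39 pools. *Scn2a1*, the pore of excitatory axons (mm9 chromosome 2, 65458914 to 65605504), was at 8.57 to 9.12 log2 CPM in Ctr (median 8.95) and 8.54 to 8.94 in SD (median 8.75), with a log2 fold change of -0.19 (adjusted p = 8.18e-12, SE 0.0222) and a fall in 37 pools. The ranges overlapped for both genes, and 2 SD pools of *Scn2a1* lay below all Ctr pools. *Scn8a*, the pore of axon initial segments and nodes, fell by less, with a log2 fold change of -0.068 (adjusted p = 0.00942, SE 0.024) and a fall in 30 pools. That call was lost in the 33 BXD/RwwJ lines alone (adjusted p = 0.0564). *Scn9a* was at 0.053 to 1.44 log2 CPM in Ctr (median 0.83) and -0.35 to 1.84 in SD (median 0.45), with a log2 fold change of -0.36 (adjusted p = 0.000193, SE 0.088) and a fall in 28 pools. *Scn3a*, the pore of the embryonic brain, did not pass the test (log2 fold change 0.0059, adjusted p = 0.842). The summed level of these 5 pores went from a median of 153 to 133 CPM per kb and was lower in SD in 36 pools. Within that sum, the share of *Scn1a* was lower in SD in 38 pools (median 26.4% and 24.7%) and that of *Scn8a* higher in 38 pools (median 33.6% and 36.0%). *Scn3a*, *Scn2a1*, *Scn1a*, *Scn9a* and *Scn7a* form a cluster on mm9 chromosome 2, in this order from 65295175 to 66622971.

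*Scn7a*, at the end of this cluster, encodes Nax, a channel that senses extracellular sodium and does not open with voltage. It was at 1.72 to 3.40 log2 CPM in Ctr (median 2.71) and 1.65 to 3.31 in SD (median 2.58), with a log2 fold change of -0.18 (adjusted p = 0.0264, SE 0.0727) and a fall in 31 pools. That call was lost in the 33 BXD/RwwJ lines alone (adjusted p = 0.0792). Of the sodium channel beta subunits, which are adhesion molecules that tune the pores, *Scn3b* rose (log2 fold change 0.12, standard error 0.031, adjusted p = 0.00024), in 33 pools. *Scn2b* was at 8.05 to 8.33 log2 CPM in Ctr (median 8.22) and 8.08 to 8.45 in SD (median 8.23). It did not pass the test (log2 fold change 0.028, standard error 0.018, adjusted p = 0.157), with 5 SD pools above the highest Ctr pool, but passed it with the replicate block (adjusted p = 0.0254). *Scn4b* was at 6.40 to 7.79 log2 CPM in Ctr (median 7.08) and 6.20 to 7.62 in SD (median 7.05). Its log2 fold change of -0.12 (standard error 0.073) did not pass the test (adjusted p = 0.141), but passed it with the paired pools of a line as a replicate block (adjusted p = 0.0006).

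Of the HCN genes, *Hcn2*, known as the form of thalamic relay cells, was at 6.82 to 7.29 log2 CPM in Ctr (median 7.03) and 6.69 to 7.28 in SD (median 7.04) and did not pass the test (log2 fold change 0.00051, standard error 0.025, adjusted p = 0.987). *Hcn4*, the pacemaker form of the heart, was at 0.84 to 2.63 log2 CPM in Ctr (median 1.70) and 0.73 to 2.34 in SD (median 1.46), with a log2 fold change of -0.21 (adjusted p = 0.00953, SE 0.075) and a fall in 28 pools.

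Promoter sequence was compared for genes that rose and genes that fell. The RefSeq table (GRCm38.p6) holds 250 bases before to 50 bases after gene starts, with 40 entries for 29 of the genes. *Cacna1a*, *Cacna1g*, *Cacna1h*, *Cacna2d4*, *Cacng4*, *Scn3a*, *Scn3b* and *Hcn3* had no entry. Shown are *Cacnb1* (chr11:98022578-98022877, minus strand, the more upstream of 2 entries) and *Cacng2* (chr15:78119231-78119530, minus strand), which rose in every pool, and *Cacna2d1* (chr5:15934441-15934740, plus strand) and *Scn1a* (chr2:66440788-66441087, minus strand), which fell. Capitals mark the GC box (GGGCGG on either strand), the only motif found in these 4 windows of 5 searched on both strands.
Cacnb1: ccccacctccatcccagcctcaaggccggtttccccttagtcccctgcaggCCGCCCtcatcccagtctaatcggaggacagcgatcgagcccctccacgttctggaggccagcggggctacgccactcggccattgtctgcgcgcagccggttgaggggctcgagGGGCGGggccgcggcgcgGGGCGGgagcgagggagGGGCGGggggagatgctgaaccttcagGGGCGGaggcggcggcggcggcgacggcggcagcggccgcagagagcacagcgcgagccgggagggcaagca
Cacng2: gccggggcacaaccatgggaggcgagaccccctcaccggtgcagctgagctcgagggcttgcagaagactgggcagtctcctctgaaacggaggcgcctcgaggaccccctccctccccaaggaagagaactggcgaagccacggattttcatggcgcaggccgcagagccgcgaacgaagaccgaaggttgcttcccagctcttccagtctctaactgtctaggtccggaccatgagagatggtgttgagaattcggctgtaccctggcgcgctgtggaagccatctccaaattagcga
Cacna2d1: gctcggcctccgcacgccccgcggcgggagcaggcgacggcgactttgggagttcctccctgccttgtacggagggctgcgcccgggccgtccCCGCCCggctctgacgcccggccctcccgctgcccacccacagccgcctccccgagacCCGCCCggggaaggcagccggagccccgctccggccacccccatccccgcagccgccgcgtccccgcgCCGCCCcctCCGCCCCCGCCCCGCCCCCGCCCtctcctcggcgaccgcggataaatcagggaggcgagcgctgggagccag
Scn1a: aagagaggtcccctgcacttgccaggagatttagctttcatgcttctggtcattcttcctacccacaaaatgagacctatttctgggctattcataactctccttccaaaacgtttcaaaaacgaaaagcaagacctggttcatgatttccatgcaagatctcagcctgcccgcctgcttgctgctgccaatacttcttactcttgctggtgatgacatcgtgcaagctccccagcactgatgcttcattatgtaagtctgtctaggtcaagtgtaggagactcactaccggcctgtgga
The window of *Cacnb1* shown held 5 GC boxes, the other entry of the gene 0, and that of *Cacna2d1* 7, with overlapping letters, whereas *Cacng2* and *Scn1a* held none, so that 1 gene that rose and 1 that fell held the motif. A GC box was present for 17 of the 29 genes, 3 of 8 that rose, 7 of 12 that fell and 7 of 9 that did not pass the test. Counted by entry, it was in 18 of the 40 entries of these genes (45.0%) and in 35.7% of all 32851 entries. The member entries had a median GC content of 60.3%, against 52.7% for all. The cAMP response element (TGACGTCA, 1.79% of all promoters) and the E-box (CACGTG, 7.15%) were found in none of the member windows. The AP-1 site (TGANTCA, 7.81% of all) was found for *Cacng5* and the EGR site (GCGTGGGCG, 0.612% of all) for *Scn7a*.

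Genes known to bind, anchor or regulate these channels were examined as well, 33 in all, of which 10 rose, 9 fell and 14 did not pass the test, against 33.0% of all genes that rose and 35.4% that fell. *Stac3*, an adaptor of L-type channels, was at 0.49 to 2.08 log2 CPM in Ctr (median 1.29) and 1.91 to 3.26 in SD (median 2.67), with a log2 fold change of 1.35 (adjusted p = 8.95e-27, SE 0.079) and 37 SD pools above the highest Ctr pool. The RGK GTPases *Gem* and *Rrad*, which bind beta subunits and inhibit calcium currents, rose by 1.09 (adjusted p = 2.62e-18, SE 0.092, 39 of 39 pools) and 0.96 (adjusted p = 3.15e-16, SE 0.089, 38 pools) on the log2 scale. *Rem1* and *Rem2*, of the same family, did not pass the test (adjusted p = 0.931 and 0.0965). Of the 4 intracellular FGF partners of sodium channel pores, 3 fell and none rose, and of the 5 axon initial segment anchors 2 rose and 2 fell. Of the 4 genes of the sodium leak channel complex, 1 rose and 2 fell.

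Lines differed in the level of 20 of the 37 genes (F-test of the line terms over the 66 Ctr and SD libraries of 33 lines, limma, adjusted p under 0.05), against 50.4% of all genes. The standard deviation between lines in Ctr had a median of 0.142 log2 CPM over the 37 genes and 0.140 over all genes. The share of variance between lines, around the condition means, had a median of 34.4% for the channel genes and 32.5% for all. Among genes with a mean of at least 5 log2 CPM, the 26 channel genes had a median standard deviation of 0.119, against 0.0956 for 6240 genes, and a median line share of 25.8% against 37.3%. Without BXD90, 26 of the 37 genes differed between lines, and *Cacna1c*, *Cacna1e*, *Cacna1g*, *Cacna2d2*, *Scn2a1* and *Hcn2* were added. Without BXD56, 22 differed, with *Cacna1g*, *Cacna2d2* and *Cacng3* added and *Cacnb4* lost.

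The genes with the largest standard deviations between lines, at a mean of at least 0 log2 CPM, were *Cacna1s* (1.48), *Hcn4* (0.36), *Scn4b* (0.33), *Scn9a* (0.33) and *Scn7a* (0.31). *Cacna1s* (mm9 chromosome 1, 137949327 to 138016399) fell into a low and a high set of lines. In Ctr, 23 lines lay between -1.32 and -0.031 log2 CPM (9 to 21 reads) and 10 lines between 2.19 and 2.95 log2 CPM (102 to 183 reads), with a gap of 2.22 between the sets. In SD the same 10 lines lay above a gap of 1.81 (BXD44, BXD48, BXD51, BXD65, BXD65a, BXD67, BXD70, BXD79, BXD83 and BXD87), and no line was between the sets in either condition. The share of variance between lines was 94.5%. *Scn4b* ranged from 6.40 log2 CPM in BXD83 to 7.79 in BXD98 in Ctr, with a line share of 82.0%, and in SD BXD98 was again the highest (7.62). *Cacna2d3* (75.6%), *Scn7a* (75.0%) and *Cacna1h* (68.9%) also had more of their variance between lines than within. The same held for *Scn2b* (66.4%), *Cacna1i* (54.7%), *Cacng6* (53.2%) and *Scn1a* (51.2%). *Scn7a* ranged from 1.72 in BXD71 to 3.40 in BXD56 in Ctr. *Scn9a*, in contrast, did not pass the test of line differences (adjusted p = 0.908). *Hcn4* ranged from 0.84 in BXD67 to 2.63 in BXD56, with a line share of 37.5% (adjusted p = 0.0129).

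**Figure D3:**
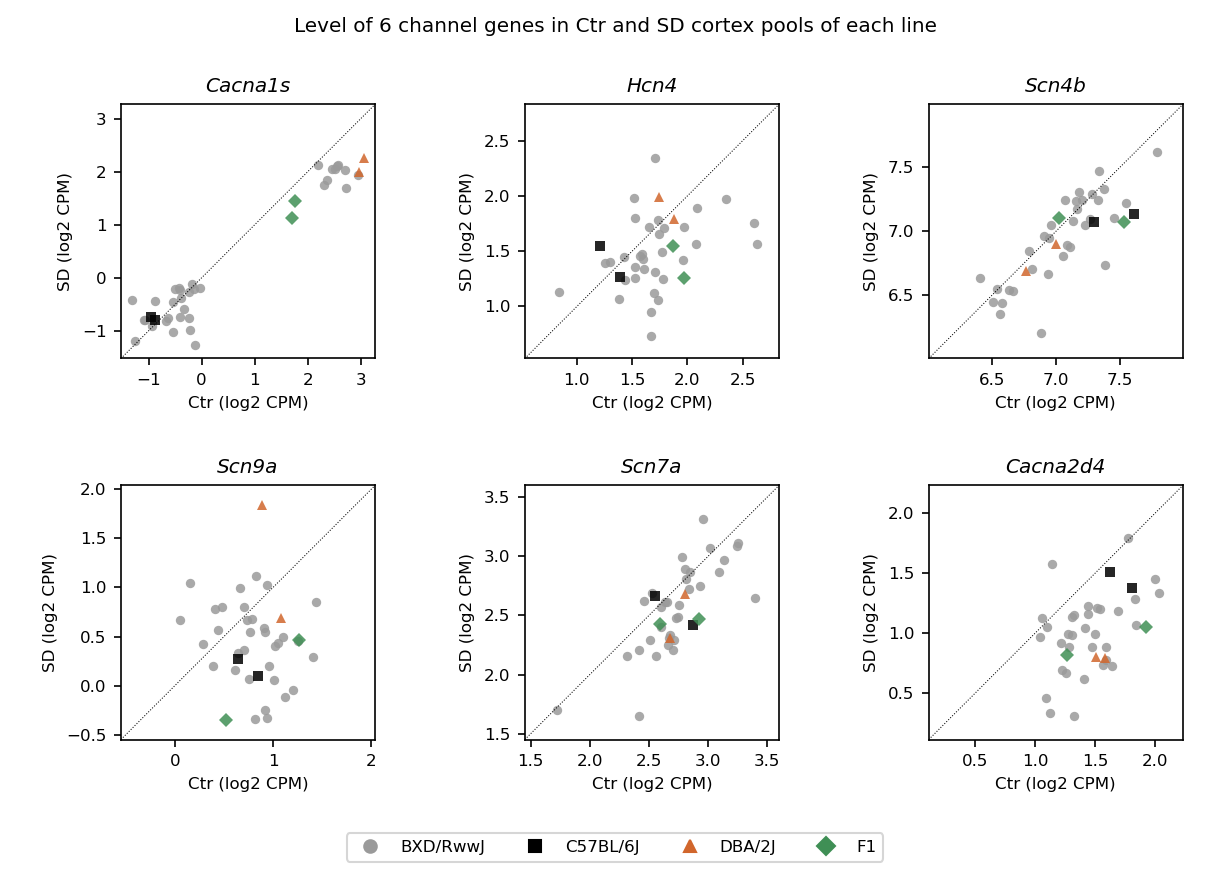
Cortex level in SD against Ctr (log2 CPM) of the 6 genes with the largest spread between lines at a mean of at least 0 log2 CPM, each symbol the Ctr and SD pools of 1 line or strain, with a dotted line at equal levels. *Cacna1s* forms a low and a high cloud with the F1 pools apart, *Scn4b* and *Scn7a* follow the diagonal, and *Scn9a* scatters.

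Line levels were set beside the summed levels of 12 marker lists, for 36 of the genes (432 relations over 33 lines, *Cacna1s* left out because its lines fell into separate sets). None passed the adjusted threshold by both Pearson's r and Spearman's rho, and 42 had unadjusted permutation p-values under 0.05 for both. The largest was that of *Cacna2d2*, an alpha2delta subunit of inhibitory neurons, with the inhibitory neuron markers (r = 0.622, rho = 0.605, adjusted permutation p = 0.0475 and 0.0540). It passed by r and not by rho, and by r only because the genes not reported here were left out of the adjustment. The r was 0.577 without the 2 lines farthest from the median of the list, and 0.578 in SD.

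The parental strains were compared in 4 cortex libraries each, 2 Ctr and 2 SD. Of the 37 genes, 14 differed between D2 and B6, against 25.5% of all genes. In D2, 8 were higher (11.6% of all genes were higher) and 6 lower (13.9% of all were lower). The strains did not overlap in 9 of the 37 genes, against 17.3% of all genes. *Cacna1s* differed most. It was at -0.88 and -0.95 log2 CPM in the Ctr libraries and -0.79 and -0.74 in the SD libraries of B6, and at 3.07 and 2.97 in Ctr and 2.25 and 1.99 in SD in D2. All D2 libraries lay above all B6 libraries, with a difference of 3.41 log2 (adjusted p = 9.99e-09, SE 0.205). The F1 libraries, 1.71 and 1.75 in Ctr and 1.12 and 1.46 in SD, all lay between the strains. When Ctr and SD libraries were not separated, this held for none of the other 13 genes. Genes whose strains overlapped could not meet that criterion. Within each condition, the F1 libraries of *Cacna1g* also lay between the strains (7.60 and 7.53 in Ctr, 7.84 and 7.73 in SD). Leaving out 1 library at a time, 11 to 15 genes differed.

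Of the 3 T-type pores, 2 were higher in D2, and *Cacna1i* did not pass the test (difference -0.042, adjusted p = 0.429). *Cacna1g* was at 7.48 and 7.37 log2 CPM in Ctr and 7.56 and 7.54 in SD in B6, and at 7.77 and 7.68 in Ctr and 7.87 and 7.88 in SD in D2 (difference 0.31, standard error 0.038, adjusted p = 2.15e-05). *Cacna1h* was 0.32 higher (adjusted p = 6.5e-05, SE 0.0445). The strains did not overlap for either gene. *Scn3b* (0.29), *Hcn4* (0.50) and *Cacna2d2* (0.26) were higher in D2, also without overlap, and *Scn1a* (0.21) and *Hcn3* (0.30) with overlap. The R-type pore *Cacna1e* was lower in D2, at 7.94 in both Ctr libraries and 8.04 and 8.17 in SD, against 8.26 and 8.30 in Ctr and 8.33 and 8.47 in SD in B6 (difference -0.32, standard error 0.0426, adjusted p = 4.58e-05). *Scn4b* was 7.61 and 7.30 in Ctr and 7.13 and 7.07 in SD in B6, and 6.997 and 6.77 in Ctr and 6.90 and 6.69 in SD in D2 (difference -0.44, standard error 0.0758, adjusted p = 0.000493). The ranges of the strains did not overlap for *Cacna1e*, *Scn4b* and *Cacng3* (-0.26), and overlapped for *Cacna2d3* (-0.21), *Cacna2d4* (-0.41) and *Cacng2* (-0.13). The call of *Cacna2d4* (adjusted p = 0.0478) was kept in 1 of the 8 fits without 1 library, and that of *Cacng2* (adjusted p = 0.0298) in 4 of 8.

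**Figure D4:**
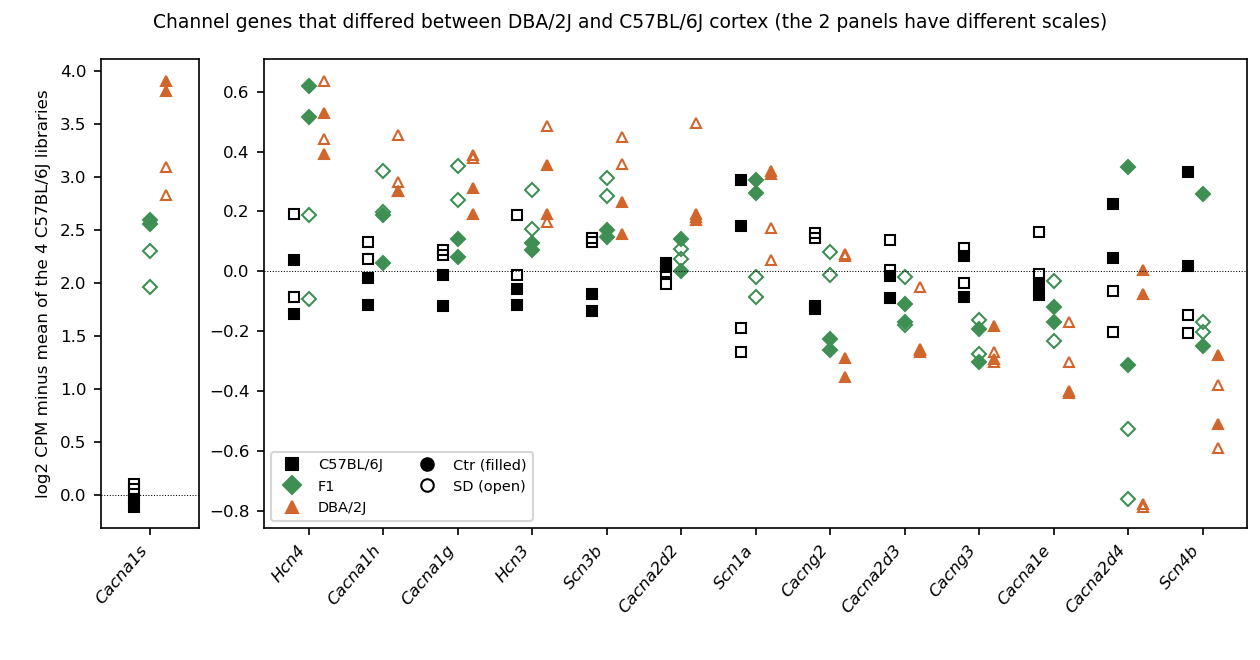
Cortex level (log2 CPM) of the 14 genes that differed between D2 and B6, relative to the mean of the 4 B6 libraries, each symbol 1 library (filled for Ctr, open for SD), with a separate scale for *Cacna1s*. The *Cacna1s* values of D2 lie above those of B6 with the F1 libraries between, and the mean differences of the other genes are at most 0.50.

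In liver, the 14 listed channel genes had few reads, with medians in Ctr from 2 (*Cacna1g*) to 50 (*Cacna1d*). They were lower than in cortex by 1.94 (*Scn7a*) to 8.77 (*Cacnb4*) in median Ctr log2 CPM, values that were scaled separately in each tissue. After SD, 2 of the 14 changed, against 44.2% of all genes listed in liver, and both fell (22.6% of all fell). *Cacnb2* was at -1.65 to 1.32 log2 CPM in Ctr (median -0.059) and -2.75 to 1.07 in SD (median -0.72), with a log2 fold change of -0.56 (adjusted p = 0.00434, SE 0.168) and a fall in 30 pools. *Cacnb4* went from a median of 0.017 to -1.06, with a log2 fold change of -0.69 (adjusted p = 0.0102, SE 0.229) and a fall in 28 pools, and 8 of the libraries had no reads. These beta subunits rested on medians of 2 to 6 reads. With the line as a replicate block, *Cacna1a*, *Cacna1d*, *Cacng7* and *Scn8a* fell as well. The change in liver minus that in cortex, tested on the paired differences of the 39 pools, differed for 7 of the 14 genes (57.6% of 12695 genes), 6 with a lower change in liver (29.6% of all) and 1 with a higher change (28.0% of all). The change of *Cacna1a* was 0.41 lower in liver (adjusted p = 0.000197, SE 0.0918, lower in 32 of 39 pools), and that of *Cacnb1* 0.58 lower (adjusted p = 0.00838, SE 0.190, lower in 28 pools).

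**Figure D5:**
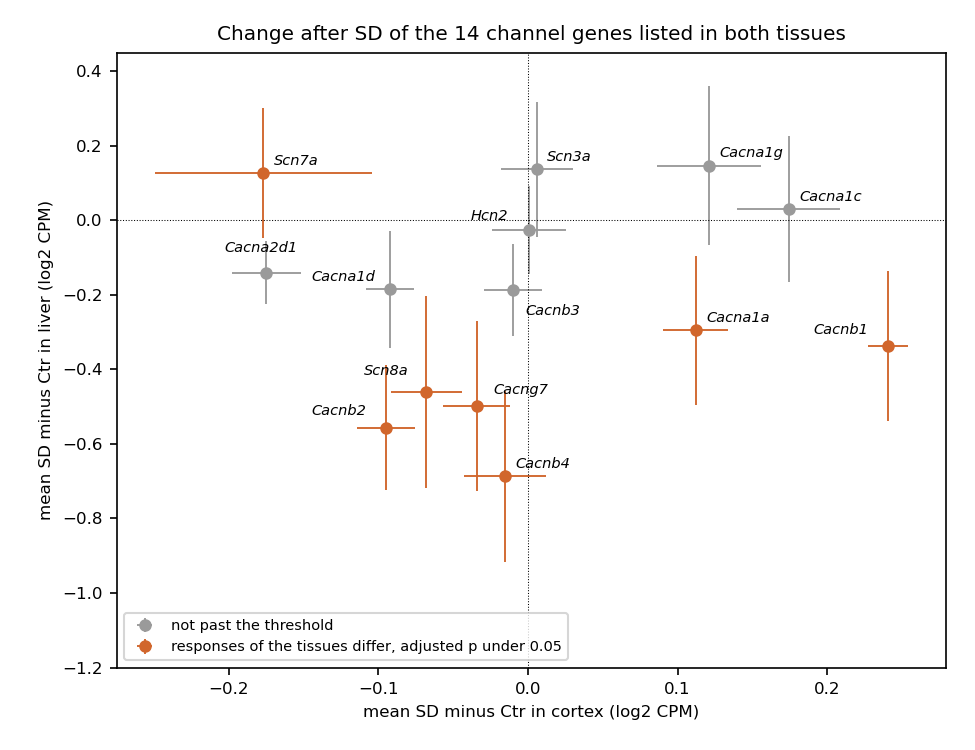
Log2 fold change after SD in liver against that in cortex for the 14 channel genes listed in both tissues, with error bars of 1 standard error of the limma fits and orange for the 7 genes whose responses differed between the tissues. The cortex changes span -0.18 to 0.24, while the liver changes reach -0.69 and carry wider errors.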

How the data were processed

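RNA-seq libraries of cortex and liver were analysed, 39 pools per tissue and condition (156 libraries). The 16 libraries of 4 BXD/TyJ lines entered only alternatives. The values deposited by the authors are in log2 CPM. Per the study's methods and the submitters' processing notes, the authors checked reads with FastQC, aligned them to mm9 with STAR, counted on RefSeq genes with HTSeq, filtered for low counts and scaled with edgeR (TMM). The logarithm holds a prior count close to 1. Reversing this scaling gave whole read numbers (tolerance 0.02 reads) for 100% of entries, from which came the depth and the voom alternatives. Such reads are not independent molecules, as no molecular identifiers are named.

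Groups were compared gene by gene over all listed genes with limma 3.58.1 in R 4.3.3 (eBayes with a variance trend), with Benjamini-Hochberg adjustment and a threshold of 0.05. Tests were two-sided. For the difference between tissues the trend ran over the mean level of a gene. The fit functions were run on simulated cortex reads with known changes, which do not cover the lower read numbers of liver. The line as a replicate block was an alternative: deviations of the Ctr and SD pools of a line correlated by at least 0.299 in cortex and 0.169 in liver, against medians of -0.020 and -0.018 between lines. The pairing comes from the line named in the labels. Levels per kb used exon lengths of GENCODE models on mm9, which are not the RefSeq models counted, and the model of *Cacng8* is only 663 bases long. Correlations used 100000 permutations.

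The genes, lists and tests were chosen with earlier results of these data known. Some genes that match the rule are not reported here and enter no count of channel genes. Given in full were the 10 genes with the largest change among those called and changed in 1 direction in at least 30 pools, the highest gene per kb of each subfamily and the 5 with the largest standard deviation between lines. Named with values were the genes that differed between strains or tissues, and partner genes past an absolute log2 fold change of 0.5. Other alternatives were median-centred libraries, eBayes without a trend, voom, a prior count of 5, a mean of at least 0 log2 CPM, and other sets of pools.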

Additional observations from a re-analysis of the deposited data

Results flagged for a closer look

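For 7 channel genes, the response to SD differed between liver and cortex by the limma test of the paired difference, given here as the liver change minus the cortex change in log2 CPM. It was lower in liver for *Cacna1a* (-0.41), *Cacnb1* (-0.58), *Cacnb2* (-0.46), *Cacnb4* (-0.67), *Cacng7* (-0.46) and *Scn8a* (-0.39), and higher in liver for *Scn7a* (0.30). The direction was shared by 32 of 39 pools for *Cacna1a*, by 28 for *Cacnb1*, *Cacnb4* and *Cacng7*, by 26 for *Cacnb2* and *Scn8a*, and by 27 for *Scn7a*. In liver the median reads in Ctr were 4 for *Cacng7*, 5 for *Cacnb2*, 6 for *Cacnb4*, 7 for *Cacnb1*, 10 for *Scn7a*, 14 for *Scn8a* and 24 for *Cacna1a*.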

How the results depend on the processing

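Of the 24 channel genes called in cortex after SD, 24 kept their direction and 22 their call under each alternative run, the exceptions being *Scn8a* and *Scn7a* in the 33 BXD/RwwJ lines alone. The count of called genes ranged from 22 (of 35 with a mean of at least 0 log2 CPM) to 29 (line as a replicate block). In liver, 6 of 14 genes changed with the line as a replicate block and 0 of 7 by limma with a mean of at least 0 log2 CPM (0 at an unadjusted p under 0.05), a filter that removed both genes called. The response differed between liver and cortex for 3 of 14 genes with no replicate block, for 4 in the 33 BXD/RwwJ lines and for 3 of 7 with a mean of at least 0 log2 CPM. A variance trend over the mean change, the fit first run, gave 7 of 14. Lines differed for 18 (without BXD79, BXD85 and BXD101) to 26 genes. Between D2 and B6, 9 genes differed in the SD libraries alone, 11 in the Ctr libraries alone, 13 with the pool as a replicate block and 11 to 15 without 1 library. In SD in place of Ctr, 1 of 432 relations with marker lists passed the threshold, that of *Cacna1a* with excitatory neurons (r = 0.675, rho = 0.638, adjusted permutation p = 0.0086 and 0.0216), which was r = -0.205 and rho = -0.032 in Ctr (adjusted permutation p = 0.598 and 0.963). No fold change or strain difference of a called gene changed sign under the alternatives run. Of these shifts, the cause was not tested, except that fewer genes or libraries entered some fits. Genes with a median of few reads (*Cacna1f*, *Cacng6*, most liver values) are limited by depth.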

Other observations

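The 4 BXD/TyJ lines, which entered only alternatives, all had *Cacna1s* levels in cortex above those of the B6 libraries. In Ctr the values were 2.47 log2 CPM in BXD05 (131 reads), 2.35 in BXD29 (106 reads), 2.42 in BXD29t (116 reads) and 2.36 in BXD32 (114 reads). In SD they were 1.70, 2.23, 1.90 and 1.98 log2 CPM in the same order.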
